A study of Danio rerio with 12 samples.

Results

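The interaction between loss of Zbtb24 and loss of the RNA sensor Mda5 was measured in all 12 RNA-seq libraries of the series, 3 for each of 4 genotypes. Double mutants (labelled ifih1Mu_z24Mu) were homozygous for both mutations. The *mda5* mutants (ifih1Mu_z24WT) carried only mk29, a small CRISPR deletion in the helicase domain of *ifih1*, the gene for Mda5. The *zbtb24* mutants (ifih1WT_z24Mu) carried only mk22, a TALEN deletion that removes coding exons, and WT larvae (ifih1WT_z24WT) carried neither. Each mutation is 1 allele in every cell of the animal, so a result for it rests on that allele. All were zebrafish larvae 3 weeks old on the AB background, and 10 larvae were pooled for each library, so values are averages over animals and over every tissue of the body. The labels do not say whether the pools came from separate clutches, so the p-values measure the spread between these pools only. For each feature, meaning each Ensembl gene entry of the table, the interaction was the double mutant minus *mda5* mutant difference less the *zbtb24* mutant minus WT difference, on the scale log2(FPKM + 0.5). FPKM, the unit of all levels here, is a fragment count corrected for transcript length and for the size of the library. A value of 0 means that zbtb24 loss had the same effect with and without Mda5. A positive value means that the effect was more positive when Mda5 was also missing, and a negative value that it was less positive. A minimum mean of 0.5 FPKM over all libraries kept 21623 of 32271 features, 20008 of them with a gene symbol. The feature just inside this limit averaged 0.500353 FPKM and the one just outside averaged 0.499774 FPKM.

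Zbtb24 is a zinc finger protein whose human orthologue is mutated in ICF syndrome, in which patients have low antibody levels and the repeats beside centromeres lose DNA methylation. Mda5 senses long double-stranded RNA in the cytosol through its helicase domain and signals through the adaptor Mavs to the transcription factors Irf3 and Irf7. These induce interferon, which acts through its receptor and Stat2 to raise a large group of antiviral genes. The design asks which transcripts respond to zbtb24 loss differently when this sensor is absent. The *mda5* allele was made with the 20-base guide below, shown because it defines the second mutation of the design. Capitals mark the 2 bases at which T7 polymerase starts the guide RNA.
mda5 guide: GGtgataaacactgcgaccc

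Levels of the mutated genes were examined first. *CDCA7* (ENSDARG00000077620), another ICF gene that ZBTB24 is known to activate in mammalian cells, was nearly absent from every library with the zbtb24 deletion. It had 0.0445, 0.0587 and 0.101 FPKM in double mutants, against 2.60, 2.83 and 2.53 FPKM in *mda5* mutants, and *zbtb24* mutants had 0.0118, 0.0676 and 0.0665 FPKM, against 3.48, 2.56 and 3.17 FPKM in WT. Its interaction was 0.22 ± 0.18 (SE, n = 3 libraries per genotype, as for every interaction below), made up of -2.70 for zbtb24 loss in larvae with Mda5 and -2.47 in larvae without it. The *ZBTB24* feature itself had 1.4002, 1.23 and 1.47 FPKM in double mutants, against 0.469, 0.538 and 0.477 FPKM in *mda5* mutants, and *zbtb24* mutants had 1.74, 1.396 and 1.06 FPKM, against 0.348, 0.510 and 0.587 FPKM in WT, so both genotypes with the deletion were higher. Its interaction was -0.04 ± 0.22, and this value turned positive with quantile normalization and without double mutant replicate 2, *zbtb24* replicate 1 or WT replicate 1. A gene-level FPKM does not say which exons the fragments came from, so this level checks neither the presence nor the absence of the deletion. By qRT-PCR in younger larvae, the paper found no detectable *zbtb24* transcript in homozygotes and proposes that the allele is null. How that result relates to the FPKM here was not tested. *IFIH1*, the *mda5* gene, had 0.573, 0.559 and 0.381 FPKM in double mutants, against 0.354, 0.613 and 0.493 FPKM in *mda5* mutants, and *zbtb24* mutants had 1.35, 1.87 and 1.54 FPKM, against 0.751, 0.732 and 0.820 FPKM in WT. The 3 *zbtb24* mutant libraries were above all others, and the interaction was -0.68 ± 0.21 (limma adjusted p = 0.110). Every library with the *mda5* mutation (0.354 to 0.613 FPKM) was below every library without it (0.732 to 1.87 FPKM). The level of *IFIH1* thus followed the *mda5* label without overlap. The difference between *mda5* mutants and WT did not pass the test, at -0.37 (adjusted p = 0.348). A small deletion need not lower the transcript, so the level does not show the deletion itself.

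The sample labels name fin as the source, while the study's design describes whole larvae. A defining liver gene was abundant in every library. This gene, *fabp10a*, the liver fatty acid binding protein, had 2442, 3185 and 2086 FPKM in double mutants, against 1040.0, 903 and 1232 FPKM in *mda5* mutants, and *zbtb24* mutants had 2003, 2108 and 1183 FPKM, against 1466, 2081 and 2295 FPKM in WT. The *zbtb24* mutant replicate 3 stood apart from the rest. Its median correlation with its own genotype across features was 0.919, against 0.931 to 0.952 in the other 11 libraries, and its 13 mitochondrial mRNAs summed to 40500.0 FPKM, against 68800.0 to 92140.0 FPKM elsewhere. Because whole animals were sampled, fewer cells of a type and less RNA per cell cannot be told apart for any gene below. The number of fragments behind an FPKM is not known, so no counting error can be given.

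No feature passed an adjusted p of 0.05 for the interaction (0 of 21623, 0%), with a smallest adjusted p of 0.0943. At an adjusted p under 0.1 there were 228 features, 144 positive and 84 negative. At an unadjusted p under 0.05 there were 5434 features (25.1%), 2880 with a positive interaction (13.3%) and 2554 with a negative one (11.8%). If no feature had an interaction, 1081 would be expected at that limit. Features are not independent of each other, and this excess was not tested. Over all features the median interaction was 0.04, with quartiles of -0.29 and 0.34. The count at this threshold depended on single libraries and on their weights. Without WT replicate 2 the same limma test gave 2128 features at an adjusted p under 0.05, 694 positive and 1434 negative, and without any of the other 11 libraries it gave between 0 and 4. A fit that weighted libraries by their spread gave 4932. It weighted *zbtb24* replicate 3 least, at 0.226, and WT replicate 2 next, at 0.501.

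**Figure D1:**
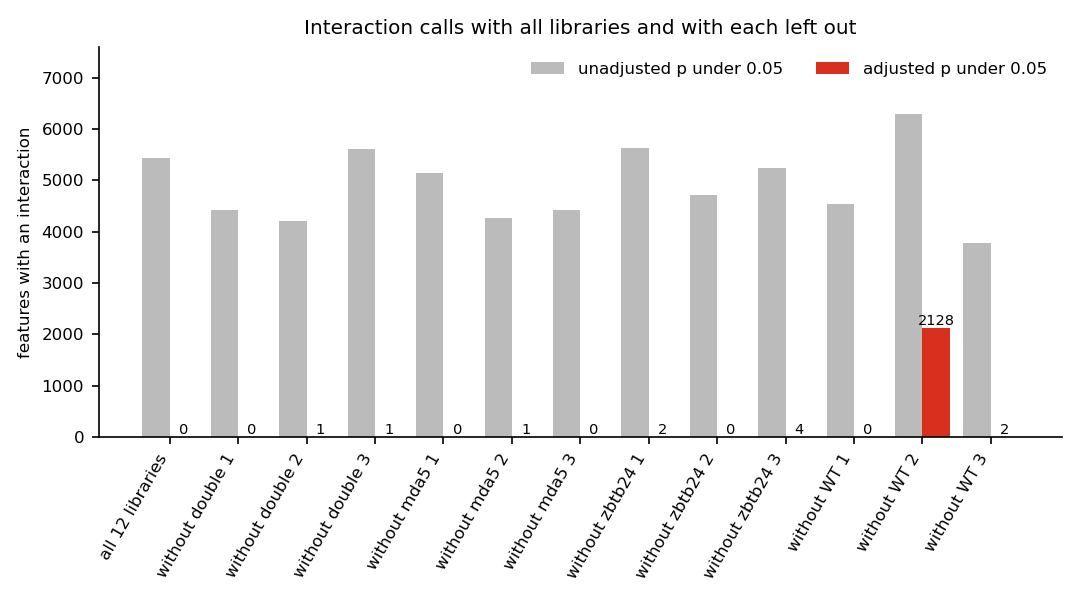
Number of features (vertical axis) with an interaction at an unadjusted p under 0.05 (grey bars) or an adjusted p under 0.05 (red bars, count printed) with all 12 libraries and with each library left out. The red bar reaches 2128 without WT replicate 2 and is between 0 and 4 otherwise.

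The features with an unadjusted p under 0.05 were read through their genotype means. Among the 2880 positive ones WT was the highest genotype in 2180 (75.7%) and double mutants in 695 (24.1%), while *zbtb24* mutants were the lowest in 2121 (73.6%) and *mda5* mutants in 758 (26.3%). Among the 2554 negative ones *zbtb24* mutants were the highest in 1913 (74.9%) and *mda5* mutants in 636 (24.9%), while WT was the lowest in 1963 (76.9%) and double mutants in 582 (22.8%). The sign of the interaction fixes much of this, since it sets double mutants and WT against the 2 single mutants. Median differences in the positive features were -0.46 for *zbtb24* mutants minus WT, 0.18 for double minus *mda5* mutants, -0.32 for *mda5* mutants minus WT and -0.14 for double mutants minus WT. In the negative features these medians were 0.51, -0.26, 0.38 and 0.12 in that order. Of the 4 comparisons, 3 share the WT libraries. At an adjusted p under 0.05, *mda5* mutants were lower than WT in 0.00462% of features and higher in 0%, and double mutants were lower than *zbtb24* mutants in 0.00462% and higher in 0%. Since the features were divided by the sign of the interaction, which is the difference between the effects of zbtb24 loss without and with Mda5, the opposite signs of these medians are a description only. At an adjusted p under 0.05, *zbtb24* mutants were lower than WT in 6.65% of features and higher in 4.92%. Double mutants were lower than *mda5* mutants in 0.0832% and higher in 0.0509%. Each comparison was adjusted on its own, so effects of similar size can pass in 1 and not in another. The *ZBTB24* feature rose by 0.94 with Mda5 (limma adjusted p = 0.0100) and by 0.91 without it (adjusted p = 0.0691).

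**Figure D2:**
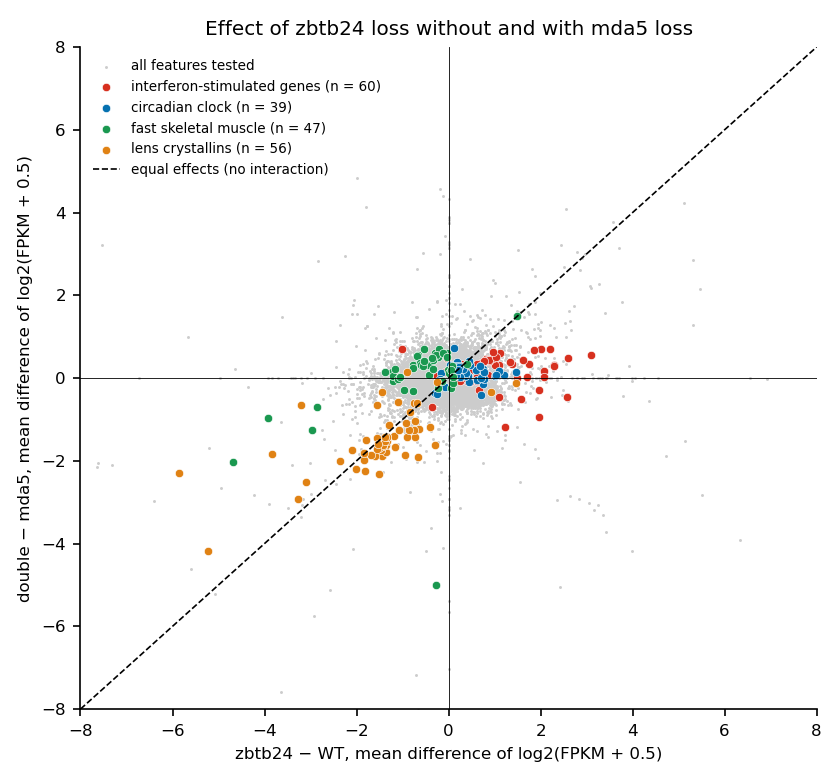
Each point is a feature. The horizontal axis gives *zbtb24* mutants minus WT and the vertical axis double minus *mda5* mutants, both as mean differences of log2(FPKM + 0.5). The dashed line marks equal effects. Interferon-stimulated genes (red) lie mostly to the right and below the line (54 of 60 below it), fast muscle genes (green) mostly above it, and lens crystallins (orange) along it. The axes stop at 8 and leave out 7 features.

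The largest departures in size came mostly from features without a gene symbol that were listed at 0 in some libraries, and their sizes depend on the 0.5 FPKM added before taking logs. The 15 largest positive interactions ran from 4.97 to 19.76, and 12 of the 15 features were listed at 0 in at least 1 library. All 15 of the largest negative ones, from -6.47 to -12.58, had such a library, against 1.73% of all features tested. The first feature outside the positive 15 was at 4.87 and the first outside the negative 15 at -6.35. Gene symbols were known for 6 of the positive and 2 of the negative 15. ENSDARG00000102909 had the largest value of all, at 19.76 ± 3.42 (adjusted p = 0.0943). Its levels were 1887, 1546 and 2577 FPKM in double mutants, against 0, 0 and 0 FPKM in *mda5* mutants, and *zbtb24* mutants had 0, 0 and 0 FPKM, against 2559, 1130.0 and 0 FPKM in WT. All 3 double mutant libraries were high, while all 6 single mutant libraries and WT replicate 3 were listed at 0. ENSDARG00000105256 had the largest negative value, -12.58 ± 5.196 (adjusted p = 0.170), with 3771, 3067 and 0 FPKM in double mutants, against 9092, 1028 and 5657 FPKM in *mda5* mutants, and *zbtb24* mutants had 0, 1824 and 3443 FPKM, against 0, 0 and 0 FPKM in WT. In ENSDARG00000101804, at -10.25 ± 3.096 (adjusted p = 0.107), all 6 single mutant libraries were above all 6 libraries of the other genotypes. It had 81.3, 69.4 and 0 FPKM in double mutants, against 289.5, 139 and 243 FPKM in *mda5* mutants, and *zbtb24* mutants had 226, 303 and 211 FPKM, against 0, 110.4 and 0 FPKM in WT. Beside 4 globin features described below, the symbols among these 30 features belonged to microRNA genes and a spliceosomal RNA. They were *mir1388* (-7.47), *MIR92A1* (ENSDARG00000104805, -7.02), *MIR181B1* (ENSDARG00000081145, 4.97) and *rnu6ataca* (5.09). The libraries were made from polyadenylated RNA, and values that jump between 0 and high FPKM within a genotype leave these features with wide errors.

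Departures of at least 2 on the log2 scale were rare once such features were set aside, a step chosen after seeing the values. Of the 21249 features above 0 in all 12 libraries, 94 had an interaction of at least 2 in size, 60 positive and 34 negative. At a size of at least 1 there were 1437, of which 737 were positive and 700 negative.

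Globin genes held the largest positive interactions among features with a symbol. *hbaa1*, an alpha globin chain of erythrocytes, had 156, 6.75 and 2.88 FPKM in double mutants, against 23.8, 37.3 and 443 FPKM in *mda5* mutants, and *zbtb24* mutants had 7.92, 0.157 and 0.154 FPKM, against 321, 671 and 689 FPKM in WT. Its interaction was 6.19 ± 2.16 (adjusted p = 0.127). All 3 WT libraries were above every other library except *mda5* replicate 3, and the values within a mutant genotype spread widely. The difference between *zbtb24* mutants and WT passed the test, at a log2 difference of -8.43 (adjusted p = 0.0142), and that between double and *mda5* mutants did not, at -2.24 (adjusted p = 0.569). Not passing in the second comparison does not show that there was no effect. A pair of beta-type chains with the symbol *HBE1* (ENSDARG00000089087 and ENSDARG00000097238) and the unnamed gene *si:ch211-5k11.8* had interactions of 5.56, 5.22 and 5.47. Globin copies of the same type are nearly identical, so fragments could have been split between such copies, and the 4 values cannot be taken as independent.

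The 15 positive interactions with the smallest p, all in features with a symbol, had the same arrangement. In each the adjusted p was 0.0943, the *zbtb24* mutants fell below WT at an adjusted p under 0.05 and double against *mda5* mutants did not pass. Each comparison was adjusted on its own, so not passing in the second does not show that the effect was absent. In *zbtb24* mutants against WT 6.65% of all features fell. The genes were chosen by an interaction that contains this comparison, so nothing is read from their count. *cd99*, which encodes a membrane glycoprotein of cell adhesion, had 77.7, 70.25 and 68.1 FPKM in double mutants, against 47.6, 53.4 and 57.2 FPKM in *mda5* mutants, and *zbtb24* mutants had 51.9, 50.0 and 41.2 FPKM, against 84.0, 77.0 and 94.6 FPKM in WT. Its interaction was 1.28 ± 0.18, made up of -0.83 without the *mda5* mutation and 0.45 with it. Every double mutant library and every WT library was above all 6 single mutant libraries.

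*itga6b*, an alpha 6 integrin subunit that anchors epidermis to the basement membrane, had the largest of these values, 3.04 ± 0.46. Its levels were 58.9, 49.0 and 21.5 FPKM in double mutants, against 14.7, 13.3 and 22.0 FPKM in *mda5* mutants, and *zbtb24* mutants had 17.0, 16.4 and 18.2 FPKM, against 54.8, 53.2 and 75.2 FPKM in WT. Double mutant replicate 3 was at the level of the single mutants while the other double mutant libraries were near that of WT. *JUP* (ENSDARG00000070787), the desmosomal protein plakoglobin, had 125, 110.0 and 97.8 FPKM in double mutants, against 84.4, 83.2 and 81.7 FPKM in *mda5* mutants, and *zbtb24* mutants had 80.2, 85.9 and 73.9 FPKM, against 120.4, 107 and 118 FPKM in WT, with an interaction of 0.93 ± 0.16. Here again the single mutants lay below both other genotypes with no overlap. *ANXA3*, an annexin that binds membrane phospholipids, had 20.6, 18.3 and 17.2 FPKM in double mutants, against 8.801, 12.29 and 14.3 FPKM in *mda5* mutants, and *zbtb24* mutants had 13.5, 14.5 and 10.7 FPKM, against 26.5, 22.9 and 28.8 FPKM in WT, with an interaction of 1.65 ± 0.25. *CAPN9*, a calpain protease known from the digestive tract, had 19.2, 13.5 and 11.5 FPKM in double mutants, against 11.13, 4.96 and 6.88 FPKM in *mda5* mutants, and *zbtb24* mutants had 6.13, 7.34 and 6.70 FPKM, against 15.9, 15.5 and 15.3 FPKM in WT, at 2.09 ± 0.35. Its double mutants ranged from below to above the WT level.

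In some of these genes all 3 mutant genotypes lay below WT. *scinlb*, a gelsolin family actin regulator, had 29.4, 25.5 and 21.2 FPKM in double mutants, against 23.9, 23.0 and 29.1 FPKM in *mda5* mutants, and *zbtb24* mutants had 18.5, 19.98 and 16.5 FPKM, against 42.4, 41.1 and 46.3 FPKM in WT. Its effect of zbtb24 loss was -1.22 with Mda5 and -0.0029 without it, while *mda5* mutants stood at -0.77 against WT, and the interaction was 1.21 ± 0.19. *SIRT4*, a mitochondrial sirtuin, had 4.84, 5.28 and 4.71 FPKM in double mutants, against 4.28, 3.69 and 4.69 FPKM in *mda5* mutants, and *zbtb24* mutants had 3.55, 3.38 and 2.67 FPKM, against 6.82, 6.58 and 8.40 FPKM in WT, at 1.28 ± 0.18. *pdlim2*, a PDZ-LIM protein of the cytoskeleton, had 27.0, 25.1 and 26.0 FPKM in double mutants, against 20.6, 21.8 and 22.9 FPKM in *mda5* mutants, and *zbtb24* mutants had 20.2, 18.9 and 19.8 FPKM, against 28.4, 31.6 and 30.6 FPKM in WT, at 0.86 ± 0.12. WT was above the other 9 libraries in 6 of the 15 genes, these 3 among them. The share over all features was 3.23%, and the choice of genes with a large positive interaction favours high WT values. The remaining genes by this rule were *zgc:153284* (1.89), *si:ch211-207i20.3* (1.17), *si:ch211-199g17.9* (0.9996), the glucuronosyltransferase *ugt1b5* (0.90), the inositol phosphatase *MINPP1* (ENSDARG00000045172, 1.08), the centromere protein *CENPP* (1.02) and the proteolipid *mala.2* (1.87).

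On the negative side, 13 of the 15 genes with the smallest p rose in *zbtb24* mutants against WT at an adjusted p under 0.05, and in 10 of the 15 the *zbtb24* mutants were above the other 9 libraries. Over all features these shares were 4.92% and 3.18%, but a negative interaction is built from the same libraries, so the counts describe the genes chosen and test nothing. Their adjusted interaction p was 0.0943 throughout. *zgc:152658*, which has no assigned function in the tables used here, had 2.32, 2.17 and 1.73 FPKM in double mutants, against 1.49, 1.04 and 1.52 FPKM in *mda5* mutants, and *zbtb24* mutants had 5.11, 6.28 and 7.06 FPKM, against 1.05, 0.950 and 0.602 FPKM in WT. Its interaction was -1.80 ± 0.25, with 2.29 for zbtb24 loss with Mda5 (adjusted p = 3.42e-04) and 0.48 without it (adjusted p = 0.331). All 3 *zbtb24* mutant libraries were above the other 9.

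*VDR* (ENSDARG00000070721), the vitamin D receptor, had 4.69, 5.299 and 4.96 FPKM in double mutants, against 4.63, 4.96 and 4.65 FPKM in *mda5* mutants, and *zbtb24* mutants had 7.21, 9.41 and 11.9 FPKM, against 3.33, 3.43 and 2.34 FPKM in WT, at -1.43 ± 0.24. Double and *mda5* mutants were both above every WT library and below every *zbtb24* mutant library for *VDR*. *CSRNP1*, a nuclear protein induced by AXIN1 in human cells, had 48.7, 45.8 and 47.2 FPKM in double mutants, against 51.7, 44.1 and 42.2 FPKM in *mda5* mutants, and *zbtb24* mutants had 72.8, 72.2 and 84.5 FPKM, against 42.5, 33.7 and 35.9 FPKM in WT, at -0.99 ± 0.17. *CREBRF*, a regulator of the glucocorticoid and unfolded protein responses, had 3.70, 4.24 and 4.81 FPKM in double mutants, against 4.004, 4.34 and 4.45 FPKM in *mda5* mutants, and *zbtb24* mutants had 6.14, 6.42 and 8.56 FPKM, against 3.24, 2.72 and 2.24 FPKM in WT, at -1.23 ± 0.21. For both genes the double and *mda5* mutant means lay between those of the *zbtb24* mutants and WT. Further genes in this direction were *si:dkey-58f10.13* (-1.54), *C2CD5* (-0.84), which acts in insulin-stimulated glucose transport, the zinc finger gene *ZNF644* (-1.55), ENSDARG00000087575 (-1.72), and *mxe* and *nr1d4b*, described below with their families.

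In *YDJC*, *KIF13B* and *GRAMD4* every double mutant library lay below every *mda5* mutant library. *YDJC*, a carbohydrate deacetylase homologue, had 2.24, 2.12 and 2.86 FPKM in double mutants, against 5.23, 5.54 and 5.07 FPKM in *mda5* mutants, and *zbtb24* mutants had 4.48, 4.70 and 3.07 FPKM, against 3.09, 3.73 and 3.21 FPKM in WT. It was the only one of the 30 genes with the smallest p, 15 in each direction, in which double against *mda5* mutants passed the test, at -0.999 (adjusted p = 0.0432, against 0.0832% of features lower in that comparison), while *zbtb24* mutants differed from WT by 0.24 (adjusted p = 0.302). Its interaction was -1.24 ± 0.21. *KIF13B* (ENSDARG00000079731), a kinesin motor, had 4.52, 4.43 and 4.18 FPKM in double mutants, against 7.06, 6.80 and 8.26 FPKM in *mda5* mutants, and *zbtb24* mutants had 6.24, 6.49 and 6.02 FPKM, against 6.06, 4.84 and 4.37 FPKM in WT, at -0.97 ± 0.17. *GRAMD4* (ENSDARG00000069171), a GRAM domain protein, had 1.71, 1.41 and 1.73 FPKM in double mutants, against 2.99, 3.13 and 2.84 FPKM in *mda5* mutants, and *zbtb24* mutants had 2.84, 2.97 and 3.44 FPKM, against 1.77, 2.51 and 1.48 FPKM in WT, at -1.31 ± 0.21. *vav3a*, a guanine nucleotide exchange factor, and *si:dkey-286f11.2* were at -1.38 and -1.11. Over 24 alternatives of the limma fit, the adjusted p of the 30 genes ranged between 0.0107 and 1. All 30 genes passed 0.05 without WT replicate 2 and with library weights, and at most 1 of them did under any other alternative.

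**Figure D3:**
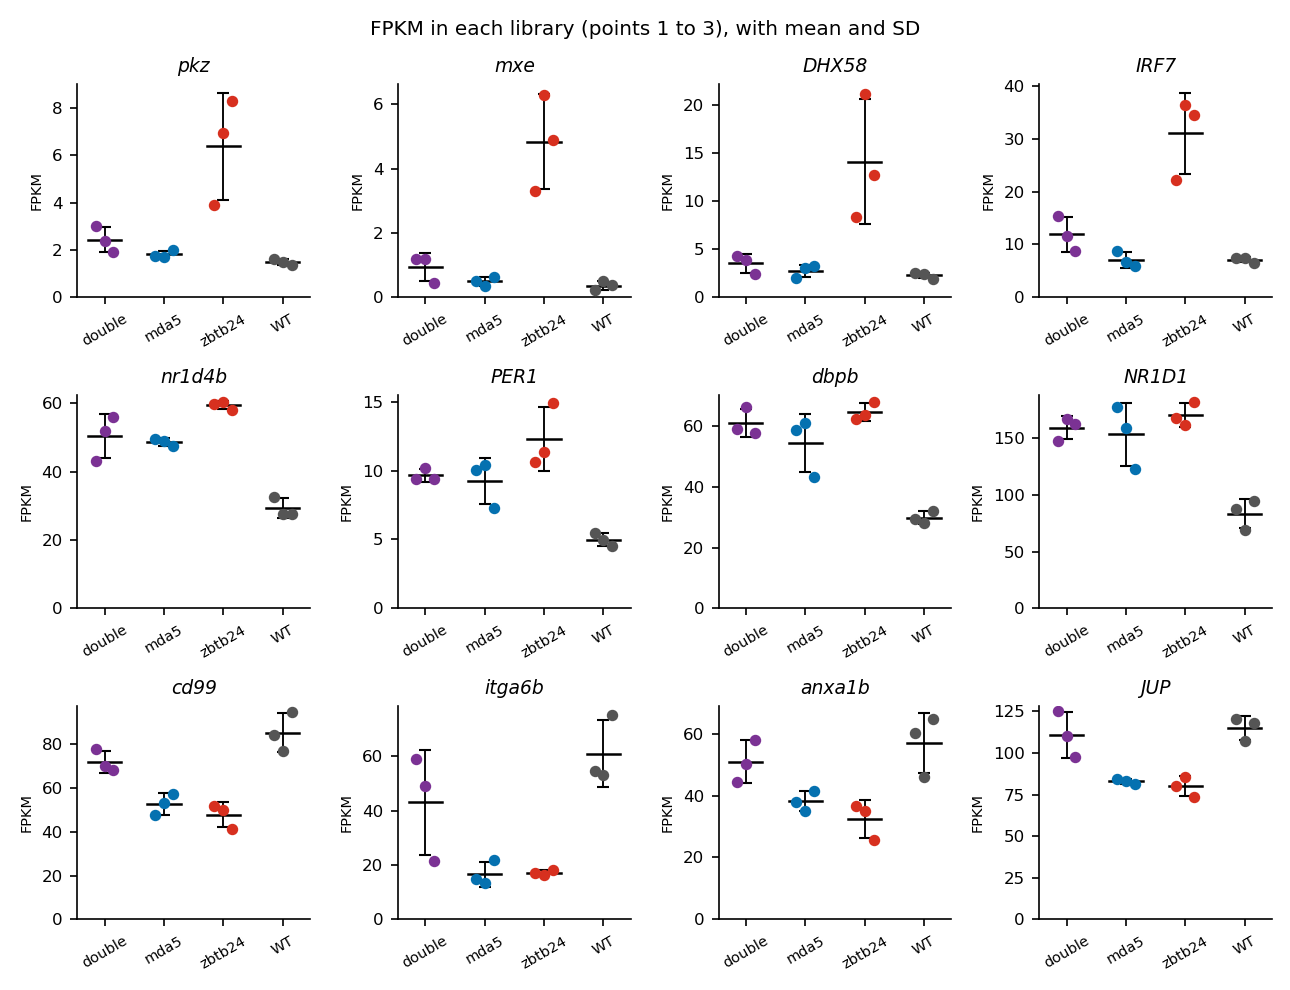
FPKM (vertical axes) of 12 genes in each library, with the mean (horizontal bar) and SD (error bar) of the 3 libraries of a genotype. *PER1* is ENSDARG00000012499 and *JUP* is ENSDARG00000070787. In the top row only *zbtb24* mutants are high, in the middle row only WT is low, and in the bottom row both single mutants are low, with double mutant replicate 3 low for *itga6b* as well.

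Antiviral genes downstream of interferon were the list with the lowest median. Of 60 interferon-stimulated features tested, 54 had a negative interaction (46.8% of all features did), and the median was -0.63 against 0.04 over all features. At an unadjusted p under 0.05, 24 were negative (11.8% of all features were) and 1 positive (13.3%), and none passed an adjusted p of 0.05. With zbtb24 loss 26 of 60 rose and 1 fell at an adjusted p under 0.05 in larvae with Mda5, against 4.92% and 6.65% of all features. In larvae without it 0 of 60 passed, but only 0.0509% of all features were higher there, so nothing is read from this 0. The median difference of the list with zbtb24 loss was 0.86 with Mda5 and 0.18 without it. In 18 of 60 the 3 *zbtb24* mutant libraries were above the other 9, against 3.18% of all features. Relative to the WT mean, the median level of the list was 0.45, 0.20 and 0.13 in the double mutant libraries, against 0.15, 0.12 and 0.08 in *mda5* mutants, and 0.70, 1.03 and 0.94 in *zbtb24* mutants, against 0.0081, -0.0042 and -0.0165 in WT (log2 differences). The *zbtb24* mutant libraries were above all others, and double and *mda5* mutants overlapped.

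*pkz*, a protein kinase activated by Z-form nucleic acids in fish, had 2.999, 2.403 and 1.93 FPKM in double mutants, against 1.74, 1.71 and 1.99 FPKM in *mda5* mutants, and *zbtb24* mutants had 3.89, 6.94 and 8.30 FPKM, against 1.61, 1.48 and 1.35 FPKM in WT. The difference with zbtb24 loss was 1.74 on the log2 scale with Mda5 (adjusted p = 0.00478) and 0.33 without it (adjusted p = 0.564). The interaction was -1.40 ± 0.32 (adjusted p = 0.101). *mxe*, one of the Mx antiviral GTPases, had 1.1997, 1.19 and 0.454 FPKM in double mutants, against 0.504, 0.362 and 0.646 FPKM in *mda5* mutants, and *zbtb24* mutants had 3.32, 6.27 and 4.90 FPKM, against 0.220, 0.501 and 0.383 FPKM in WT, with an interaction of -2.10 ± 0.38 (adjusted p = 0.0943). For both genes the 3 *zbtb24* mutant libraries were above the other 9. Mx copies resemble each other, and fragments may be shared among *mxe*, *mxa* (-1.51) and *mxc* (-1.17).

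*DHX58*, which encodes the RNA sensor LGP2 and cooperates with Mda5, had 4.26, 3.88 and 2.46 FPKM in double mutants, against 2.06, 3.01 and 3.24 FPKM in *mda5* mutants, and *zbtb24* mutants had 8.37, 21.1 and 12.7 FPKM, against 2.51, 2.39 and 1.96 FPKM in WT. Its interaction was -2.005 ± 0.42 (adjusted p = 0.0982). *IRF7*, the interferon regulatory factor that Mda5 signalling activates, had 15.4, 11.7 and 8.79 FPKM in double mutants, against 8.801, 6.69 and 5.91 FPKM in *mda5* mutants, and *zbtb24* mutants had 22.3, 36.3 and 34.4 FPKM, against 7.44, 7.38 and 6.52 FPKM in WT, at -1.33 ± 0.32 (adjusted p = 0.101). Double mutants were above *mda5* mutants on average for *IRF7*, with a difference of 0.69 that did not pass the test (adjusted p = 0.304). *ifit9* and *ifi27.2* were at -1.92 and -1.99.

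*RSAD2*, the antiviral enzyme viperin, had the lowest value of the list, -3.04 ± 1.04 (adjusted p = 0.122), with a wide error. Its levels were 0.817, 0.954 and 1.25 FPKM in double mutants, against 0.619, 1.05 and 4.59 FPKM in *mda5* mutants, and *zbtb24* mutants had 3.92, 27.13 and 19.3 FPKM, against 0.922, 4.22 and 1.21 FPKM in WT. The *zbtb24* mutant replicate 1 was below WT replicate 2 and *mda5* replicate 3, so the genotypes overlapped. *TAP1*, the peptide transporter of antigen presentation, was at -0.95. The 1 member with a positive interaction at an unadjusted p under 0.05 was *rnasel3*, a secreted ribonuclease, with 28.6, 29.8 and 18.9 FPKM in double mutants, against 12.7, 13.3 and 20.8 FPKM in *mda5* mutants, and *zbtb24* mutants had 14.1, 18.2 and 12.2002 FPKM, against 23.4, 27.0 and 42.0 FPKM in WT, and an interaction of 1.72 ± 0.38. It was lower in both single mutants on average.

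Upstream components of the sensing pathway had a median nearer to that of all features. Of 25 features from sensors to signalling kinases, 16 were negative (46.8% of all features were), and the median was -0.15. At an unadjusted p under 0.05, 7 were negative (11.8% of all features) and 0 positive (13.3%). *DHX58*, *IRF7* and *IFIH1* are among the 7 and are themselves interferon-stimulated. *IFIH1* is also the gene mutated in double and *mda5* mutants. An equal log2 shift in both genotypes with that mutation would cancel in the interaction. The value for *IFIH1* was made up of 0.71 for zbtb24 loss with Mda5 and 0.03 without it. An effect of the mutation on its own transcript was not tested. *TYK2*, a kinase of the interferon receptor, had 6.06, 4.54 and 4.77 FPKM in double mutants, against 4.46, 4.47 and 4.19 FPKM in *mda5* mutants, and *zbtb24* mutants had 6.97, 7.62 and 6.63 FPKM, against 3.93, 3.77 and 3.201 FPKM in WT, at -0.68 ± 0.17 (adjusted p = 0.101). The *zbtb24* mutants were above every other library. *nfkb1*, *irf3* and *STING1*, the last an adaptor of DNA sensing, were at -0.53, -0.95 and -1.04.

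Genes of ICF syndrome and DNA methylation had a median of -0.06 over 15 features, which turned to 0.08 without *zbtb24* replicate 1 and to 0.04 without *zbtb24* replicate 2. *TET1*, which oxidises methylcytosine, was at -0.76 ± 0.28. *DNMT1*, the maintenance methyltransferase, had 6.96, 7.04 and 5.99 FPKM in double mutants, against 5.38, 5.36 and 5.28 FPKM in *mda5* mutants, and *zbtb24* mutants had 7.61, 7.54 and 6.81 FPKM, against 4.94, 5.11 and 4.40 FPKM in WT, at -0.27 ± 0.13. It was higher in every library with the zbtb24 deletion than in any library without it. *HELLS*, the chromatin remodeller that works with Cdca7, had 3.94, 4.18 and 3.097 FPKM in double mutants, against 2.47, 1.99 and 2.07 FPKM in *mda5* mutants, and *zbtb24* mutants had 3.68, 3.46 and 2.76 FPKM, against 2.66, 2.35 and 2.36 FPKM in WT, at 0.30 ± 0.19. Neither interaction was past an unadjusted p of 0.05.

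Clock genes were also mostly negative. Transcripts of the core oscillator and its outputs rise and fall over the day, so their level depends on the hour of sampling. Of 39 features, 28 had a negative interaction (46.8% of all features did), and the median was -0.21. At an unadjusted p under 0.05, 13 were negative (11.8% of all features) and 1 positive (13.3%). In 10 of 39 the 3 WT libraries were below the other 9, against 1.75% of all features, while 15 of 39 rose in *zbtb24* mutants against WT (4.92% of all features). Between double and *mda5* mutants 0 passed. Of all features only 0.0509% were higher and 0.0832% lower in that comparison, so nothing is read from this 0. The median came to -0.09 without *zbtb24* replicate 3. The time of day at which each pool was collected is not given in the sources used here.

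*nr1d4b*, a nuclear receptor of the Rev-erb family, had 43.2, 51.9 and 55.9 FPKM in double mutants, against 49.5, 49.1 and 47.3 FPKM in *mda5* mutants, and *zbtb24* mutants had 59.9, 60.2 and 58.1 FPKM, against 32.6, 27.7 and 27.5 FPKM in WT. All 3 mutant genotypes were above WT with no overlap, zbtb24 loss had an effect of 1.01 with Mda5 and 0.04 without it, and the interaction was -0.97 ± 0.16 (adjusted p = 0.0943). *NR1D1*, the Rev-erb alpha receptor that represses Bmal1, had 148, 167 and 162 FPKM in double mutants, against 177, 159 and 123 FPKM in *mda5* mutants, and *zbtb24* mutants had 168, 161 and 182 FPKM, against 87.5, 69.0 and 94.2 FPKM in WT, at -0.97 ± 0.22. *PER1* (ENSDARG00000012499), a period repressor of the clock, had 9.37, 10.2 and 9.35 FPKM in double mutants, against 10.0, 10.4 and 7.31 FPKM in *mda5* mutants, and *zbtb24* mutants had 10.6, 11.4 and 14.9 FPKM, against 5.44, 4.96 and 4.53 FPKM in WT, at -1.14 ± 0.22. *dbpb*, a PAR bZIP output factor, had 59.13, 66.5 and 57.9 FPKM in double mutants, against 58.8, 61.2 and 43.4 FPKM in *mda5* mutants, and *zbtb24* mutants had 62.3, 63.7 and 68.1 FPKM, against 29.4, 28.05 and 32.2 FPKM in WT, at -0.92 ± 0.19. In each of these 3 the *mda5* mutants were above WT by between 0.82 and 0.87 log2 units. That difference did not pass the test, where 0% of all features were higher. The double mutants of these 3 genes passed the test against WT (adjusted p = 0.0346, 0.0424 and 0.0115, where 0.153% of all features were higher).

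*CLOCK* (ENSDARG00000011703), *nr1d4a* and *PER3* were at -0.90, -1.12 and -0.65. *BMAL1* (ENSDARG00000035732), the partner of Clock, had a smaller value of -0.38 ± 0.12. The 1 clock feature in the other direction was *cry5*, a photolyase-related gene, with 4.26, 3.75 and 4.20 FPKM in double mutants, against 2.48, 2.27 and 2.03 FPKM in *mda5* mutants, and *zbtb24* mutants had 2.94, 3.66 and 4.15 FPKM, against 2.76, 3.70 and 3.37 FPKM in WT, and an interaction of 0.62 ± 0.19. Its *mda5* mutants were below the other 3 genotypes.

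Most lists of body tissues lay on the positive side. The highest medians were those of collagen, bone and cartilage (1.14, 46 of 50 features positive), liver secreted proteins and lipid carriers (0.93, 32 of 32), fast skeletal muscle (0.84, 41 of 47) and skin and epithelial keratins (0.75, 40 of 44), where 53.2% of all features were positive. At an unadjusted p under 0.05, the positive counts were 21 of 50, 18 of 32, 27 of 47 and 22 of 44, against 13.3% of all features, and the negative counts were 1, 0, 0 and 1. Without *zbtb24* replicate 3 the collagen median was 0.58, the liver median 0.71, the muscle median 0.61 and the skin median 0.73.

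**Figure D4:**
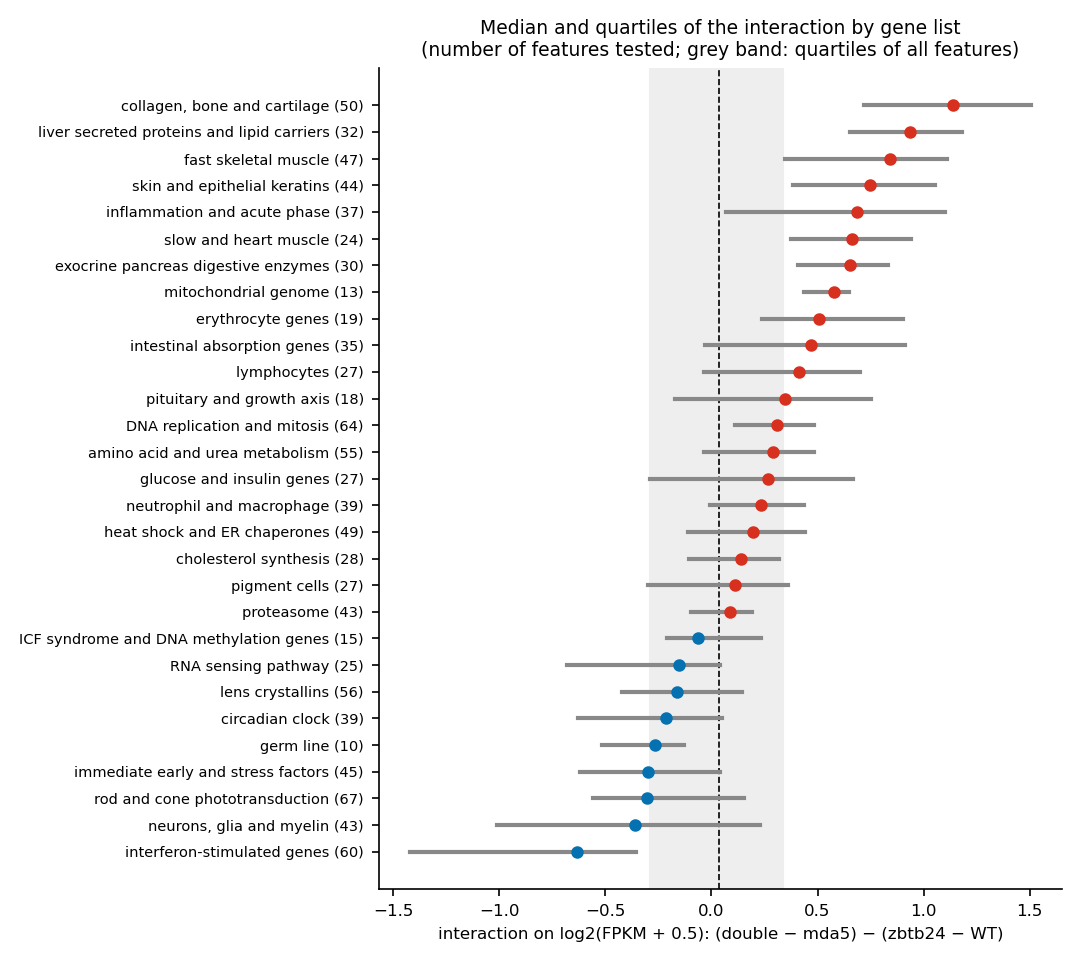
Median (point) and quartiles (bar) of the interaction on log2(FPKM + 0.5) for gene lists, with the number of features tested in brackets. The dashed line and grey band give the median and quartiles over all 21623 features. Interferon-stimulated genes are lowest at -0.63 and collagen, bone and cartilage highest at 1.14.

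Skin genes had median differences of -0.25 when *zbtb24* mutants were set against WT, 0.41 when double mutants were set against *mda5* mutants, -0.44 for *mda5* mutants against WT and 0.14 for double mutants against WT. *cldni*, a claudin of epidermal tight junctions, had 113, 113 and 98.7 FPKM in double mutants, against 81.2, 82.9 and 73.4 FPKM in *mda5* mutants, and *zbtb24* mutants had 84.0, 87.4 and 77.2 FPKM, against 109, 97.8 and 121 FPKM in WT, and its interaction was 0.84 ± 0.16 (adjusted p = 0.0943). *krt99*, a keratin, had 1.59997, 1.70 and 1.15 FPKM in double mutants, against 0.729, 0.835 and 0.979 FPKM in *mda5* mutants, and *zbtb24* mutants had 0.959, 0.734 and 0.872 FPKM, against 1.63, 1.31 and 1.29 FPKM in WT, at 1.05 ± 0.21. *anxa1b*, an annexin of the epidermis, had 44.4, 50.3 and 58.1 FPKM in double mutants, against 37.8, 35.1 and 41.5 FPKM in *mda5* mutants, and *zbtb24* mutants had 36.6, 35.0 and 25.5 FPKM, against 60.05, 46.1 and 64.8 FPKM in WT, at 1.21 ± 0.24. In all 3 genes every single mutant library was below every double mutant and WT library. *DSP* (ENSDARG00000022309), the desmosomal plaque protein desmoplakin, was at 1.15 ± 0.27. *icn*, an S100-like calcium binding protein of ionocytes and skin, was at 1.16 ± 0.28.

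Muscle genes were measured at high levels. *ckmb*, a muscle creatine kinase, had 3843, 4920.4 and 4043 FPKM in double mutants, against 3067, 3075 and 2811 FPKM in *mda5* mutants, and *zbtb24* mutants had 3565, 3865 and 3168 FPKM, against 4127, 3532 and 4832 FPKM in WT, with an interaction of 0.74 ± 0.22 (adjusted p = 0.104). *tpma*, alpha tropomyosin, had 7638, 9819 and 8077 FPKM in double mutants, against 6744, 6899.7 and 6811 FPKM in *mda5* mutants, and *zbtb24* mutants had 6873, 7063 and 4668 FPKM, against 9279, 7855 and 10326 FPKM in WT, at 0.89 ± 0.26. *TNNI2* (ENSDARG00000029995), fast troponin I, had 1054, 1152 and 859.9 FPKM in double mutants, against 892, 865 and 1016 FPKM in *mda5* mutants, and *zbtb24* mutants had 785, 819 and 349 FPKM, against 1352, 1259 and 1684 FPKM in WT, at 1.36 ± 0.40. Replicate 3 of the *zbtb24* mutants was the lowest of the 12 libraries for *tpma* and *TNNI2*. Quantile normalization, which forces every library to 1 distribution, reduced *ckmb* to 0.10, *tpma* to 0.04 and the median of the list to 0.38, so the size of the muscle difference depends on the scaling. *pvalb2*, a parvalbumin calcium buffer, was at 1.21 ± 0.37, or 0.25 with quantile normalization. The mitochondrial mRNAs, with a median of 0.58 over 13 features, came to 0.02 under the same scaling and to 0.24 without *zbtb24* replicate 3.

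Among genes of bone and mineralised tissue, *PHEX*, an endopeptidase of bone cells, had 27.0, 26.0 and 22.6 FPKM in double mutants, against 21.1, 24.1 and 25.3 FPKM in *mda5* mutants, and *zbtb24* mutants had 19.9, 18.6 and 10.7 FPKM, against 35.4, 29.4 and 34.1 FPKM in WT, at 1.13 ± 0.28. *odam*, an enamel organ protein, had 11.4, 12.9 and 19.1 FPKM in double mutants, against 7.67, 6.76 and 8.64 FPKM in *mda5* mutants, and *zbtb24* mutants had 9.24, 7.57 and 13.7 FPKM, against 20.1, 10.98 and 17.7 FPKM in WT, at 1.49 ± 0.38. The secreted calcium-binding phosphoproteins *scpp7* and *scpp9* were at 2.59 ± 0.90 and 2.49 ± 0.79. *scpp7* had 7.72, 1.47 and 1.65 FPKM in double mutants, against 5.59, 4.88 and 9.10 FPKM in *mda5* mutants, and *zbtb24* mutants had 2.31, 0.558 and 0.0835 FPKM, against 9.38, 15.6 and 21.1 FPKM in WT, and it was low in *zbtb24* mutants and in 2 of 3 double mutant libraries.

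Liver genes gave positive values for every member tested. *SERPINC1*, the clotting inhibitor antithrombin, had 87.7, 81.9 and 63.4 FPKM in double mutants, against 62.5, 60.6 and 68.5 FPKM in *mda5* mutants, and *zbtb24* mutants had 57.5, 73.0 and 52.0 FPKM, against 91.2, 96.1 and 106 FPKM in WT, at 0.96 ± 0.22. For *fabp10a*, whose levels are given above, the interaction was 1.43 ± 0.37. Double mutants were above *mda5* mutants with no overlap, by 1.27 (adjusted p = 0.110), and *zbtb24* mutants differed from WT by -0.16. *RBP4*, the plasma retinol carrier, was at 0.98 ± 0.26. The fibrinogen chains *FGG* and *FGB*, acute phase proteins made in the liver, were at 1.204 ± 0.29 and 1.33 ± 0.33. They make up part of the positive median of the inflammation list (0.69, 29 of 37 features positive, against 53.2% of all features).

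Digestive enzymes of the exocrine pancreas were positive in 28 of 30 features (53.2% of all features were), with a median of 0.65 that came to 0.21 under quantile normalization. At an unadjusted p under 0.05, 7 of 30 were positive (13.3% of all features) and 0 negative (11.8%). The median difference of the list was 0.69 for double against *mda5* mutants and 0.03 for *zbtb24* mutants against WT. *amy2al2*, an amylase, had the smallest p of the list, with 30.7, 13.8 and 14.2 FPKM in double mutants, against 8.00, 13.2 and 16.4 FPKM in *mda5* mutants, and *zbtb24* mutants had 10.7, 10.4 and 3.68 FPKM, against 26.3, 21.5 and 19.5 FPKM in WT, and an interaction of 2.09 ± 0.59. Unlike the median of the list, it was low in *zbtb24* mutants, and *zbtb24* replicate 3 was the lowest library. Intestinal absorption genes had a median of 0.47 (23 of 35 positive, against 53.2% of all features), or 0.20 with quantile normalization. At an unadjusted p under 0.05, 4 of 35 were positive (11.4%, a share below the 13.3% of all features) and 0 negative (11.8% of all features).

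**Figure D5:**
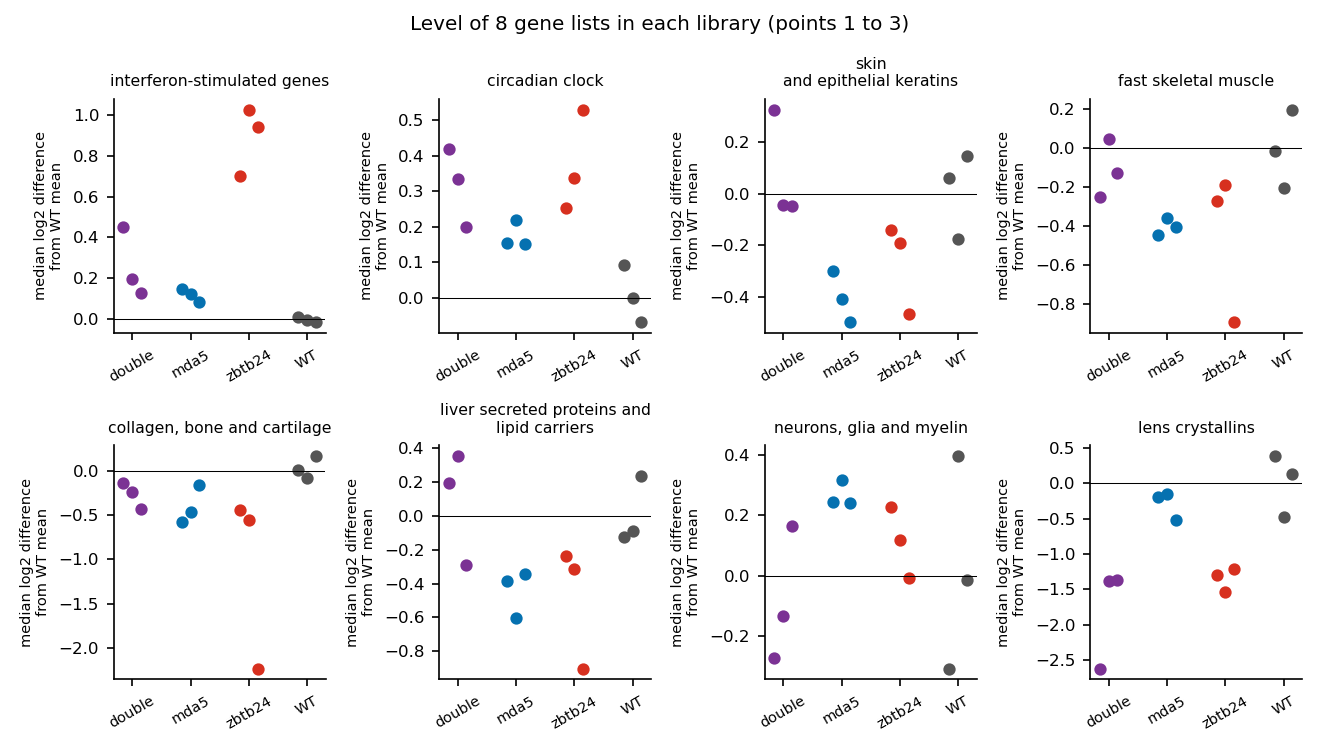
Median log2 difference from the WT mean (vertical axes) over the members of 8 gene lists, 1 point per library and 3 per genotype. Interferon-stimulated genes are high only in the *zbtb24* mutants (0.70, 1.03 and 0.94), collagen genes are lowest in *zbtb24* replicate 3 (-2.24), and lens crystallins are low in double and *zbtb24* mutants.

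Lens crystallins, the structural proteins of the lens, were low with zbtb24 loss in both backgrounds. Their median interaction was -0.16 over 56 features, 36 of which fell with zbtb24 loss in larvae with Mda5 (6.65% of all features did) and 5 in larvae without it (0.0832%), at median differences of -1.37 and -1.52. The sign of the median was not stable, since it was 0.25 without double mutant replicate 1, 0.08 without WT replicate 2 and 0.16 with library weights. *CRYBB2*, a beta crystallin, had 2.59, 3.43 and 4.85 FPKM in double mutants, against 63.7, 58.1 and 101 FPKM in *mda5* mutants, and *zbtb24* mutants had 7.13, 3.04 and 1.92 FPKM, against 145, 132 and 174 FPKM in WT. Both effects passed the test, at -5.22 and -4.18, and the interaction was 1.04 ± 0.53. The smallest p of the list belonged to gamma M crystallins. *crygm6* had 1.73, 4.52 and 1.53 FPKM in double mutants, against 7.14, 7.55 and 43.7 FPKM in *mda5* mutants, and *zbtb24* mutants had 2.39, 0.577 and 0.604 FPKM, against 49.8, 125 and 104 FPKM in WT, with an interaction of 3.55 ± 0.97 (adjusted p = 0.102). It was already lower in *mda5* mutants than in every WT library. *crygm3* and *crygm7* were at 2.55 ± 0.72 and 1.9995 ± 0.66. The gamma M copies are similar in sequence, so fragments could have been split between them.

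Red cell genes other than globins had smaller values than the 4 globin features above, positive except for *CREG1* (-0.14). The other globins of the list went both ways, with *hbae5* at 2.28, *hbae1.3* at 0.51, *hbae1.1* at -0.65 and *hbae3* at -0.9998. *SLC4A1* (ENSDARG00000012881), the anion exchanger of the red cell membrane, had 9.05, 6.21 and 6.66 FPKM in double mutants, against 9.10, 5.96 and 4.86 FPKM in *mda5* mutants, and *zbtb24* mutants had 4.16, 4.55 and 3.95 FPKM, against 11.5, 7.92 and 8.31 FPKM in WT, at 1.18 ± 0.31. *alas2*, which starts heme synthesis, had 10.4, 8.13 and 7.06 FPKM in double mutants, against 8.43, 12.37 and 11.06 FPKM in *mda5* mutants, and *zbtb24* mutants had 7.80, 5.84 and 2.90 FPKM, against 17.7, 12.7 and 23.7 FPKM in WT, at 1.37 ± 0.45. The *zbtb24* mutants were below the other 9 libraries in *SLC4A1* and in 4 of the 19 features of the list (3.36% of all features). The list had a median of 0.51, with 7 of 19 positive (13.3% of all features) and 0 negative (11.8%) at an unadjusted p under 0.05.

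Nervous system genes were on the negative side. Of 43 features of neurons, glia and myelin, 15 were negative (11.8% of all features) and 1 positive (13.3%) at an unadjusted p under 0.05, and the median was -0.36. The 3 WT libraries differed among themselves here. *ELAVL3*, an RNA binding protein of neurons, had 22.8, 28.2 and 37.7 FPKM in double mutants, against 37.1, 40.0 and 42.4 FPKM in *mda5* mutants, and *zbtb24* mutants had 39.4, 46.6 and 41.0 FPKM, against 21.9, 40.1 and 19.2 FPKM in WT, at -1.16 ± 0.36. WT replicate 2 was at the level of the single mutants while WT replicates 1 and 3 were below them. *SYT1*, a synaptic vesicle protein, and *GAD1* (ENSDARG00000027419), which makes GABA, were at -1.06 and -1.18. Without WT replicate 2 the median of the list was -0.53. In that fit 14 of 43 features passed an adjusted p of 0.05, all negative, where 1434 of all 21624 features tested were called negative. This was the largest such count of the 30 lists, which differ in size. With all 12 libraries 0 of 43 passed. The fit leaves out the WT library that was at the single mutant level for *ELAVL3*, so nothing is read from its count. Without WT replicate 1 the median was -0.17. Genes of rod and cone phototransduction had a median of -0.30, which came to -0.0050 without double mutant replicate 3.

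Among lymphocyte genes, 9 of 27 were positive (13.3% of all features) and 1 negative (11.8%) at an unadjusted p under 0.05. *RAG1*, which cuts antigen receptor genes in developing lymphocytes, had 15.4, 16.6 and 11.2 FPKM in double mutants, against 10.2, 8.09 and 7.003 FPKM in *mda5* mutants, and *zbtb24* mutants had 9.67, 12.9 and 4.64 FPKM, against 11.6, 12.45 and 11.3 FPKM in WT, at 1.199 ± 0.42. In growth axis genes, *IGF1R* (ENSDARG00000027423), the receptor for insulin-like growth factor, had 4.13, 4.01 and 3.83 FPKM in double mutants, against 4.05, 4.29 and 4.52 FPKM in *mda5* mutants, and *zbtb24* mutants had 5.08, 6.67 and 7.11 FPKM, against 4.04, 3.54 and 2.90 FPKM in WT, at -0.85 ± 0.19, and *igf2a*, one of its ligands, had 14.4, 13.0 and 11.98 FPKM in double mutants, against 14.2, 14.8 and 15.2 FPKM in *mda5* mutants, and *zbtb24* mutants had 12.23, 11.13 and 8.70 FPKM, against 17.4, 18.6 and 20.6 FPKM in WT, at 0.64 ± 0.18. The receptor was higher in the 3 *zbtb24* mutant libraries than in the other 9, while for the ligand *zbtb24* replicate 1 overlapped the double mutants. *prl*, the pituitary hormone prolactin, had 1.75, 2.44 and 1.41 FPKM in double mutants, against 0.613, 0.569 and 0.428 FPKM in *mda5* mutants, and *zbtb24* mutants had 2.2001, 2.14 and 2.04 FPKM, against 2.36, 0.969 and 1.51 FPKM in WT, at 0.81 ± 0.32. All 3 *mda5* mutant libraries were below the other 9 for *prl*.

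Among amino acid genes, *GPT* (ENSDARG00000055642), the alanine aminotransferase, had 20.5, 14.2 and 15.98 FPKM in double mutants, against 21.3, 15.3 and 22.4 FPKM in *mda5* mutants, and *zbtb24* mutants had 7.05, 10.9 and 6.51 FPKM, against 23.2, 29.6 and 48.0 FPKM in WT, at 1.74 ± 0.39, and *SLC7A5*, a transporter that takes up large neutral amino acids, had 6.64, 7.15 and 6.90 FPKM in double mutants, against 5.70, 6.69 and 7.84 FPKM in *mda5* mutants, and *zbtb24* mutants had 9.48, 9.69 and 9.75 FPKM, against 4.19, 6.35 and 3.46 FPKM in WT, at -0.97 ± 0.25. The 3 *zbtb24* mutant libraries were below the other 9 for the enzyme and above them for the transporter. Immediate early genes held *FOSL1*, an AP-1 subunit, at -1.74 ± 0.48, and *NPAS4* (ENSDARG00000055752), an activity-dependent factor of neurons, at -1.19 ± 0.35. These 2 do not stand for their list. At an unadjusted p under 0.05, 6 of its 45 features were negative (13.3%, against 11.8% of all features). Another 4 were positive (8.89%, against 13.3%), with values up to 1.05.

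Medians of the other lists were mostly nearer to that of all features. They were 0.31 for DNA replication and mitosis (56 of 64 features positive, against 53.2% of all features, but 5 of 64 at an unadjusted p under 0.05, a share below the 13.3% of all features), 0.27 for glucose and insulin genes, 0.23 for neutrophils and macrophages, 0.20 for heat shock and ER chaperones, 0.14 for cholesterol synthesis, 0.11 for pigment cells and 0.09 for the proteasome. Signs of the last 2 changed when *zbtb24* replicate 3 (pigment cells) or *zbtb24* replicate 2 (proteasome) was left out, to -0.07 and -0.14, and that of the proteasome also with quantile normalization, to -0.15. Germ line genes had a median of -0.27, but only 10 of 37 matched features reached the minimum level. Slow and heart muscle had a median of 0.66, lymphocytes 0.41, pituitary and growth axis 0.35, amino acid and urea metabolism 0.29, and immediate early and stress factors -0.30, which came to -0.14 without *mda5* replicate 1. The 24 features of the slow and heart muscle list included 2 named *PRPH2* (ENSDARG00000038018 and ENSDARG00000014840), at -0.45 and -0.44. *PRPH2* is a photoreceptor gene and not a muscle gene.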

How the data were processed

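Polyadenylated RNA from 12 pools of whole larvae was made into stranded paired-end libraries by the authors. Per the submitters' processing notes, reads were trimmed with Trimmomatic 0.33, mapped to GRCz10 with TopHat2 2.1.1 and quantified with Cufflinks 2.2.1. The deposited file gives FPKM after scaling between libraries by the authors with Cuffnorm, 1 column per library and 0 further columns of sample values. It holds no fragment counts, so the depth of each library is unknown beyond the average that the paper gives for its samples. An exact 0 can be a failed estimate.

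The test used features averaging 0.5 FPKM or more, on the scale log2(FPKM + 0.5), which understates changes of low genes. A linear model with 1 mean per genotype was fitted to the 12 libraries by lmFit of limma 3.58.1 (R 4.3.3), leaving 8 residual degrees of freedom, and variances were moderated by eBayes with trend. P-values are two-sided and adjusted by Benjamini-Hochberg over all 21623 features in each comparison. No pair of libraries held identical values. Symbols came from a table that pairs them with Ensembl gene identifiers, often in the human form, and 26418 of 32271 features had one. Where a symbol belongs to several features, the identifier is given.

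Named genes were the 15 features with the largest interaction in each direction (at most 2 of them without a symbol named per direction), the 15 features with the smallest unadjusted interaction p in each direction, the targeted genes, and members of 30 gene lists, those with the smallest p first. Further list members were named after their values were seen. The features studied and the lists were chosen with earlier results of these data known. Some items are not reported here. The alternatives were other pseudocounts, filters, scalings and limma settings, a replicate block and leaving out each library.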

Additional observations from a re-analysis of the deposited data

How the results depend on the processing

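Leaving out 1 library at a time gave between 0 and 2128 interaction calls at an adjusted p under 0.05, between 3782 and 6287 at an unadjusted p under 0.05, between 246 and 3456 calls for *zbtb24* mutants against WT (246 without WT replicate 3, 3456 without WT replicate 2), between 13 and 37 for double against *mda5* mutants, between 1 and 3 between *mda5* mutants and WT, between 1 and 5 between double and *zbtb24* mutants, and between 25 and 144 between double mutants and WT (144 without *zbtb24* replicate 3). Library weights gave 4932 interaction calls and 8364 at an unadjusted p under 0.05. In the pairwise comparisons they gave 6404 calls between *zbtb24* mutants and WT, 379 between double and *mda5* mutants, 1109 between double and *zbtb24* mutants, and 213 between double mutants and WT. A test against a 2-fold change left 77 features at an unadjusted p under 0.05 for the interaction, and 7, 2 and 7 calls for *zbtb24* mutants against WT, double against *mda5* mutants and double mutants against WT. Without a filter on the mean there were 3 interaction calls, 2 calls between *mda5* mutants and WT, 3 between double and *zbtb24* mutants and 56 between double mutants and WT. Quantile normalization gave 3 calls between *mda5* mutants and WT and 2 between double and *zbtb24* mutants, and a pseudocount of 1 gave 2 for the last comparison. Keeping only features above 0 in every library, chosen after seeing the data, gave 0 for both. The causes were not tested.

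Samples with the same number did not deviate together: over 18 same-number pairs of libraries the correlation of deviations from the genotype means was between -0.125 and 0.167, and 2 pairs were over 0.1. A replicate block gave 0 interaction calls with a smallest adjusted p of 0.130, 46 calls between double mutants and WT and 1578 between *zbtb24* mutants and WT. Of 112 named genes, 1 changed the sign of its interaction under any of 24 alternatives. *ZBTB24* was at 0.11 with quantile normalization, and between -0.17 and 0.09 when 1 library was left out, with 0.02 without double mutant replicate 2, 0.0912 without *zbtb24* replicate 1 and 0.07 without WT replicate 1. With 3 pools per genotype and no fragment counts, small interactions of low genes are not detectable here.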

Other observations

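Some features stood out for their values by library and were chosen after those values were seen. *gig2l*, a gene named for its induction by grass carp reovirus in another fish, had 19.1, 2.81 and 11.2 FPKM in double mutants, against 6.11, 0.421 and 0.8998 FPKM in *mda5* mutants, and *zbtb24* mutants had 60.9, 109 and 14.2 FPKM, against 0.959, 0.554 and 0.253 FPKM in WT. All 3 *zbtb24* mutant libraries were above the *mda5* mutants and WT, and *zbtb24* replicate 3 was below double mutant replicate 1. Its interaction was -3.30 ± 1.28 (limma adjusted p = 0.151). *si:dkey-211g8.8*, which has no assigned function in the tables used here, had 2.01, 0.317 and 1.94 FPKM in double mutants, against 5.91, 0.154 and 3.31 FPKM in *mda5* mutants, and *zbtb24* mutants had 4.31, 6.28 and 57.7 FPKM, against 0.0880, 0.144 and 0.0856 FPKM in WT, with an interaction of -4.91 ± 1.39 (adjusted p = 0.102).

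*RRM2* (ENSDARG00000078069), a member of the DNA replication list and a subunit of ribonucleotide reductase, had 0, 0.0842 and 4.31 FPKM in double mutants, against 0.0401, 0.0125 and 3.43 FPKM in *mda5* mutants, and *zbtb24* mutants had 0.0177, 0 and 0.0501 FPKM, against 3.64, 3.67 and 3.65 FPKM in WT. All 3 WT libraries, *mda5* replicate 3 and double mutant replicate 3 were above 3 FPKM, and the other 7 libraries were near 0. The libraries of the double and *mda5* mutants thus differed within a genotype as much as WT and *zbtb24* mutants differed from each other.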
